A study of Oryza sativa Japonica Group with 22 samples.

Results

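The interaction of EcSAT with HaSSA in milkripe rice seeds was measured as the effect of HaSSA in the presence of EcSAT minus its effect in the absence of EcSAT, over all genes of 13 of the 22 RNA-seq libraries of the series. The 13 libraries are those of the lines SATxSSA (n = 3 libraries), SAT (n = 3), SSA (n = 3) and Taipei (n = 4), chosen by their line labels. All were made from rRNA-depleted total RNA of rice seeds harvested 10 days after flowering, each from an individual panicle. Taipei is the untransformed japonica cultivar Taipei 309. SSA is Taipei bombarded with HaSSA, the methionine- and cysteine-rich 2S albumin of sunflower with a KDEL endoplasmic reticulum (ER) retention sequence, under the seed-specific wheat Bx17 glutenin promoter. SAT is a single Agrobacterium line, SAT47, that carries EcSAT, the cysE serine acetyltransferase of E. coli with a plastid targeting signal, under the maize ubiquitin 1 promoter. SATxSSA carries both transgenes and comes from a cross of SAT with SSA as the pollen donor. It was propagated by single seed descent to the F5 generation, and 2 segregants were combined under this label. The lines CGSxSSA (n = 4) and CGS (n = 5), in which feedback-insensitive AtD-CGS of Arabidopsis takes the place of EcSAT, are used here only for comparison, and CGSxSSA likewise combines 2 segregants. The labels do not say which segregant a library came from. Each transgene is represented by 1 transformed line, so that an effect of the transgene and a difference of the line that carries it cannot be told apart.

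Serine acetyltransferase makes O-acetylserine (OAS), the carbon backbone onto which OAS-thiol-lyase (OASTL) transfers reduced sulfur to give cysteine, the precursor of methionine. Plants short of sulfur, or in which OAS accumulates, raise the transcripts of sulfate transporters, of the enzymes of sulfate reduction and of a small set of marker genes known as the OAS cluster. A secreted protein such as HaSSA is folded in the ER, where an excess of unfolded protein raises the transcripts of chaperones such as BiP and of protein disulfide isomerases. The comparison asks whether either of these responses to HaSSA differs in seeds that also contain EcSAT.

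The total count over genes was 30096050 to 41585957 per library in SATxSSA, 34272893 to 37642924 in SAT, 31221925 to 33745683 in SSA and 33878151 to 35696144 in Taipei. Unmapped reads, among which transgene reads would be found, made up 3.69% ± 0.783 (SD, n = 3) in SATxSSA and 0.895% ± 0.0271 (n = 3) in SAT, and 6.26% ± 0.673 (n = 3) in SSA and 0.679% ± 0.0411 (n = 4) in Taipei. The rise of this share with HaSSA was therefore smaller by 2.78 percentage points with EcSAT, and its part in the results below was not tested. In SATxSSA replicate 1, 20.3% of the reads lay outside genes, more than in the other 2 libraries of the line (lowest 14.7%). The identifiers carry no annotation here, so the tissue was not checked against markers of endosperm, embryo or green tissue, and gene names are those the study uses. In whole seeds, fewer cells of a type and less RNA per cell cannot be told apart.

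Of the sulfur genes that rose with HaSSA alone, none passed the test for HaSSA in the presence of EcSAT. Of the ER folding genes that rose with HaSSA alone, most also rose with it in the presence of EcSAT. Levels are given in CPM, counts scaled to a fixed total after the size of each library was multiplied by its TMM factor. These factors were 1.06 to 1.15 in the SATxSSA and SSA libraries and 0.844 to 0.993 in the SAT and Taipei libraries. Effects are log2 differences of fitted levels. Called genes, those that rose or fell, are those with an adjusted p under 0.01 (edgeR's quasi-likelihood test, Benjamini-Hochberg over all 26821 genes tested). Among the 43 tested of the 46 genes in the study's lists for sulfur (transport and assimilation of sulfate, the OAS cluster, methionine recycling, and the endogenous CGS and SAT), 13 rose in SSA relative to Taipei, against a background of 1.83% of all genes. In SATxSSA relative to SAT, 0 of these 13 rose and 0 fell (background 1.59% higher, 2.66% lower). Their median log2 effect, without SULTR1;1, which had at most 3 reads in each line with EcSAT, was -0.20 with EcSAT and 1.66 without it. Of the 24 genes in the list of ER folding genes, 12 rose in SSA relative to Taipei, and 10 of these 12 also rose in SATxSSA relative to SAT, with medians of 1.18 with EcSAT and 1.72 without it. These effects come from separate libraries, but the genes were chosen for their rise in SSA. That choice favours a larger effect without EcSAT than with it. Over all genes, 92 of the 490 that rose in SSA (18.8%) also rose in SATxSSA relative to SAT. The medians of these 490 were 0.29 with EcSAT and 0.88 without it. Of the 169 that fell in SSA (background 0.630%), 26 (15.4%) also fell in SATxSSA relative to SAT. Scaling to library size in place of TMM moved the median effect over all genes to 0.30 with EcSAT and 0.25 without it. With this scaling, 1 of the 13 sulfur genes and 12 of the 12 ER folding genes rose in SATxSSA relative to SAT. The study kept some of these lists by a limit on read counts in these same libraries, so they are not an independent selection.

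**Figure D1:**
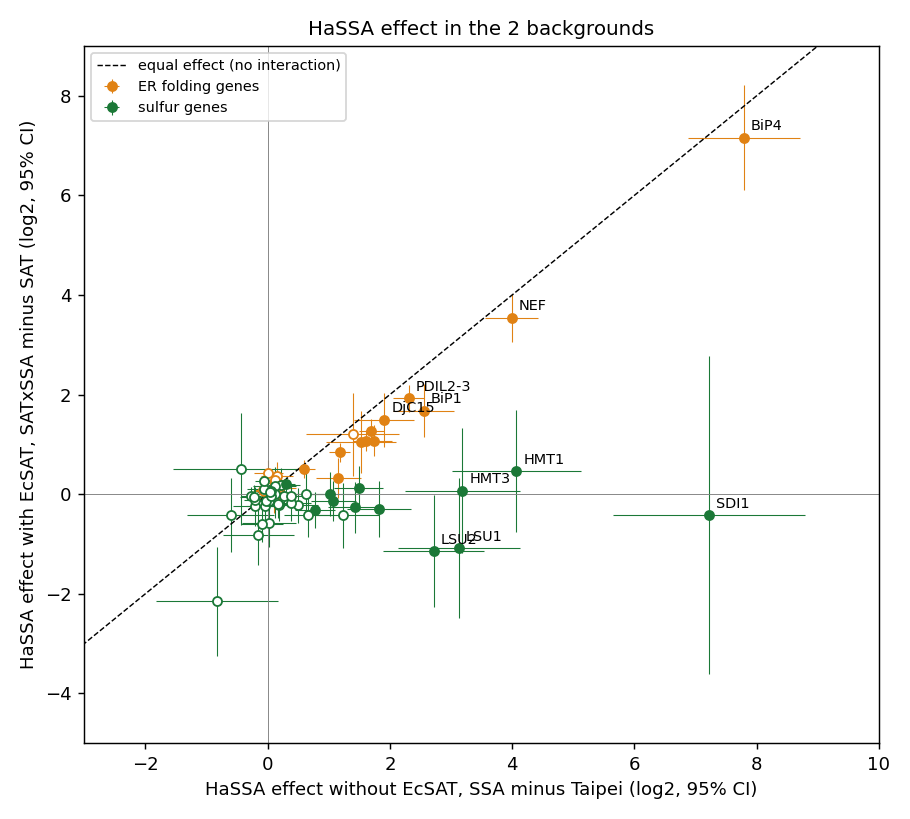
Effect of HaSSA with EcSAT (vertical axis, SATxSSA minus SAT, log2) against its effect without EcSAT (horizontal axis, SSA minus Taipei, log2) for the genes of the study's lists, with 95% confidence intervals. Filled points are genes called in SSA relative to Taipei, SULTR1;1 is left out because of its few reads, and the dashed line marks equal effects. The filled ER folding genes lie near the dashed line or somewhat below it, and the filled sulfur genes lie between -1.14 and 0.47 on the vertical axis, with LSU2 and LSU1 lowest.

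The interaction itself was called for 2 of the 43 sulfur genes, both lower (background 0.153% of all genes lower and 0.0969% higher), and for 0 of the 24 ER folding genes in either direction. At an unadjusted p under 0.05, 17 sulfur genes were lower and 1 higher, and 7 ER folding genes were lower and 1 higher (background 6.96% lower, 6.26% higher). The estimate was below 0 for 34 of the 43 sulfur genes (median -0.42) and for 18 of the 24 ER folding genes (median -0.19), while the median over all genes tested was -0.01. The 3 list genes not tested for want of reads were the CGS gene Os06g0176900, the SAT gene Os03g0185000 and SHM6 Os09g0278300, with at most 8, 7 and 1 reads in any of the 22 libraries. The number of calls among the sulfur genes depended on single libraries, 1 of them not part of the contrast. CGSxSSA replicate 1 lay below the other 3 CGSxSSA libraries in 12 of the 13 sulfur genes that rose in SSA, and in 11 of the 12 such ER folding genes. It enters the fit only through the spread between libraries. Without it the estimates of the list genes named here were essentially the same, and 12 sulfur genes were called, all lower, against 2 with it. That fit was added after the low values of this library were seen. A fit of the 13 libraries alone called 8, and DESeq2 called 12. SSA replicate 2 was likewise the lowest SSA library in 12 of the 13 sulfur genes and 11 of the 12 ER folding genes. The leave-one-out fits of the 13 libraries called 0 to 6, with 6 called without SSA replicate 2 and 0 without any of Taipei replicates 2, 3 and 4, SSA replicates 1 and 3, SAT replicates 1 and 3, and SATxSSA replicates 1, 2 and 3.

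LSU2 Os02g0129800, an ortholog of the LOW SULFUR genes of Arabidopsis that mark sulfur deficiency, had the most negative interaction of the called list genes. It stood at 0.784, 0.375 and 0.567 CPM in SATxSSA and at 2.11, 0.776 and 0.932 CPM in SAT, and at 13.5, 7.12 and 15.3 CPM in SSA and at 2.21, 1.38, 1.52 and 2.19 CPM in Taipei. All SSA libraries lay above every library of the other 3 lines, and the SATxSSA and SAT libraries overlapped slightly. The interaction was -3.86 (SE 0.67, 95% CI -5.25 to -2.46, adjusted p = 0.00638 from edgeR). In CGSxSSA it reached 8.33, 8.42 and 10.2 CPM in replicates 2 to 4 and 2.14 CPM in replicate 1, against 1.22 CPM ± 0.103 (SD, n = 5) in CGS. Leaving out each of the 13 libraries in turn gave estimates from -4.13 to -3.29 with adjusted p from 0.00273 to 0.0448. The call held only without Taipei replicate 1, SSA replicate 2 or SAT replicate 2.

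SULTR4;1 Os09g0240500, a group 4 transporter that releases sulfate from the vacuole, behaved in the same way at a higher level. Its level was 23.4, 18.8 and 20.3 CPM in SATxSSA and 26.4, 23.8 and 26.8 CPM in SAT, and 92.6, 67.9 and 115 CPM in SSA and 30.7, 24.2, 23.9 and 24.9 CPM in Taipei. The SSA libraries stood far above the other 3 lines, and the SATxSSA libraries lay just below all SAT and Taipei libraries. Its interaction was -2.12 (SE 0.37, 95% CI -2.89 to -1.35, adjusted p = 0.00729), with the leave-one-out estimates between -2.30 and -1.93 and the adjusted p between 0.00388 and 0.0296. The call held only without Taipei replicate 1 or SSA replicate 2.

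**Figure D2:**
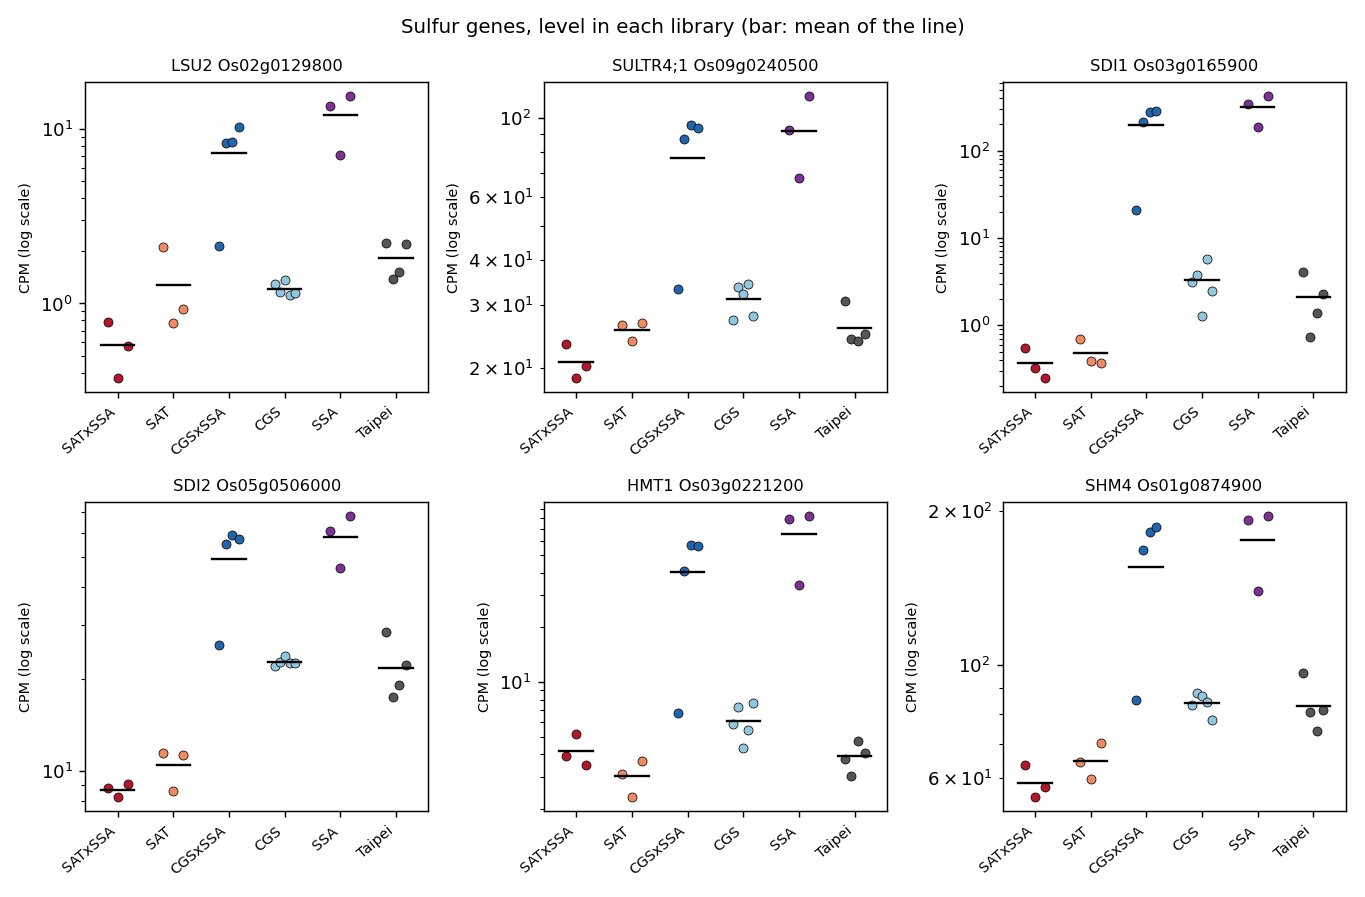
Level of 6 sulfur genes in each library (points, CPM on a log axis) with the mean of each line (bars). The SSA and CGSxSSA libraries lie above all SATxSSA and SAT libraries in each panel. The lowest CGSxSSA point is replicate 1 throughout, and for LSU2 it lies only just above the highest SAT library.

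The other transporters named here and the first enzymes of assimilation had negative estimates that did not pass the test. SULTR1;1 Os03g0195800, a high-affinity sulfate transporter, was at the limit of detection in both lines with EcSAT, with 1, 0 and 2 reads in the SATxSSA libraries and 2, 0 and 1 reads in the SAT libraries. It reached 12.1, 7.12 and 18.4 CPM in SSA, against 11, 1, 5 and 5 reads in the Taipei libraries. The ratio of SSA to SATxSSA, from 1381 and 3 reads, was 487 with a 95% exact counting interval of 166 to 2360, which covers counting error only. SULTR1;3 Os08g0406400 had an interaction of -0.55 (adjusted p = 0.32). ATPS Os03g0743900, the ATP sulfurylase that activates sulfate, averaged 51.0 CPM ± 3.23 in SATxSSA and 50.6 CPM ± 6.34 in SAT, and 115 CPM ± 27.1 in SSA and 56.3 CPM ± 7.63 in Taipei (SD, n = 3, 3, 3 and 4). Its interaction was -1.02 (95% CI -1.62 to -0.42, adjusted p = 0.122). APRL1 Os07g0509800, which the study lists with the adenosine phosphosulfate reductases, had an interaction of -1.66 (adjusted p = 0.0843), and the sulfite reductase SiR Os05g0503300 one of -0.42 (adjusted p = 0.234).

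At the step that makes cysteine, OASTL Os12g0625000 had 34.2, 35.3 and 35.9 CPM in SATxSSA and 31.1, 30.8 and 34.5 CPM in SAT, and 121, 79.8 and 141 CPM in SSA and 43.2, 36.7, 36.4 and 45.8 CPM in Taipei. Its interaction of -1.36 (95% CI -1.95 to -0.77) missed the threshold (adjusted p = 0.0256). The more abundant OASTL Os03g0747800 had an interaction of -0.11 (95% CI -0.31 to 0.10, adjusted p = 0.685), and it was the only sulfur gene that rose in SAT relative to Taipei (0.35, adjusted p = 0.00536). The endogenous serine acetyltransferase SAT Os05g0533500 averaged 5.24 CPM ± 0.792 in SATxSSA and 6.52 CPM ± 0.569 in SAT, and 10.1 CPM ± 1.84 in SSA and 5.90 CPM ± 0.608 in Taipei. Its interaction was -1.10 (adjusted p = 0.0257).

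The homocysteine methyltransferases, which make methionine from S-methylmethionine and homocysteine, comprised 2 that rose in SSA relative to Taipei and 2 that did not pass this test. HMT1 Os03g0221200 stood at 3.92, 5.17 and 3.52 CPM in SATxSSA and 3.13, 2.33 and 3.70 CPM in SAT, and at 79.5, 34.4 and 82.4 CPM in SSA and 3.77, 3.03, 4.74 and 4.06 CPM in Taipei. The SATxSSA and Taipei libraries overlapped, and SSA lay far above both. The interaction was -3.60 (95% CI -5.21 to -1.99, adjusted p = 0.0347). HMT3 Os10g0422200 had an interaction of -3.12 (adjusted p = 0.0686), with 0.875 CPM ± 0.471 in SATxSSA and 0.806 CPM ± 0.298 in SAT, and 12.2 CPM ± 3.33 in SSA and 1.34 CPM ± 0.0732 in Taipei. HMT2 Os12g0607000, the most abundant, had an interaction of -0.41 (95% CI -0.84 to 0.02, adjusted p = 0.399).

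Of the 14 OAS-cluster orthologs tested, 6 rose in SSA relative to Taipei and 0 in SATxSSA relative to SAT, and LSU2 was the only one called for the interaction. SDI1 Os03g0165900, a sulfur deficiency induced gene, had the widest range of levels. It stood at 0.543, 0.321 and 0.250 CPM in SATxSSA and 0.703, 0.388 and 0.366 CPM in SAT, and at 337, 184 and 417 CPM in SSA and 4.03, 0.734, 1.40 and 2.28 CPM in Taipei. Every EcSAT library lay below every Taipei library. The interaction was -7.64, but with an SE of 1.93 it did not pass the test (adjusted p = 0.0863). SDI2 Os05g0506000 stood at 8.78, 8.22 and 9.08 CPM in SATxSSA and 11.5, 8.62 and 11.3 CPM in SAT, and at 60.7, 46.1 and 68.3 CPM in SSA and 28.4, 17.5, 19 and 22.3 CPM in Taipei. Here too the lines with EcSAT lay below Taipei (SAT minus Taipei -1.06, adjusted p = 0.0168), and the interaction was -1.69 (95% CI -2.36 to -1.01, adjusted p = 0.0147). LSU1 Os10g0509600 was near the detection limit in all lines but SSA and CGSxSSA, with 3, 5 and 7 reads in the SATxSSA libraries and 13, 6 and 8 in the SAT libraries, against 1.84 CPM ± 0.685 in SSA and 0.209 CPM ± 0.0600 in Taipei. Its interaction was -4.20 (adjusted p = 0.0161). Further members, chosen after their values were seen, were the serine hydroxymethyltransferase SHM4 Os01g0874900 (-1.22, adjusted p = 0.033) and ChaCL1 Os02g0465900, a ChaC-like gene of glutathione breakdown (-1.09, adjusted p = 0.0916).

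The spread behind these values is that of the fit over 22 libraries. Without CGSxSSA replicate 1, the genes called for the interaction were SULTR4;1 (adjusted p = 2.13e-06), LSU2 and SDI2 (7.2e-05 each), HMT1 and SHM4 (9.09e-05 each), HMT3 (0.000549), OASTL Os12g0625000 (0.000723), LSU1 (0.00202), SDI1 (0.00298), ATPS (0.00661), and SAT Os05g0533500 and ChaCL1 (0.009 each), all from edgeR. APRL1 (0.0469) remained outside the threshold. The library was left out after its low values in these same genes were seen. Leaving it out narrows their spread, so these calls are no separate support. In EcSAT seeds with HaSSA relative to those with HaSSA alone (SATxSSA minus SSA), 15 of the 43 sulfur genes fell and 0 rose (background 0.455% lower, 0.164% higher), and 0 fell and 1 rose in SAT relative to Taipei (background 0.302% lower, 0.388% higher). Of the 24 ER folding genes, 2 fell in SATxSSA relative to SSA, Hsp70 Os02g0710900 (-0.56, adjusted p = 0.0067) and PDIL2-3 Os09g0451500 (-0.76, adjusted p = 0.00166), and 0 rose (median over the list -0.35). For SSA and SATxSSA, all 3 pairs of same-numbered libraries correlated above 0.1 (0.13 to 0.20), and with the replicate number as a block 13 sulfur genes and 1 ER folding gene fell.

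The ER chaperones rose with HaSSA in the presence of EcSAT as well, with effects that were smaller as estimated. Their interactions did not pass the test, and the values with AtD-CGS are given below. BiP1 Os02g0115900, an Hsp70 chaperone of the ER, averaged 1742 CPM ± 237 in SATxSSA and 544 CPM ± 155 in SAT, and 2893 CPM ± 687 in SSA and 492 CPM ± 120 in Taipei. The effect of HaSSA was 1.68 with EcSAT (adjusted p = 0.000629) and 2.56 without it (adjusted p = 5.35e-07). The interaction was -0.88 (95% CI -1.59 to -0.17, adjusted p = 0.269). BiP4 Os05g0428600 stood at 42.8, 97.9 and 115 CPM in SATxSSA and 0.288, 0.886 and 0.566 CPM in SAT, and at 158, 129 and 251 CPM in SSA and 0.520, 1.44, 0.821 and 0.444 CPM in Taipei. Lines with and without HaSSA did not overlap in either background, and all SATxSSA libraries lay below all SSA libraries. Its interaction was -0.63, with an interval from -2.20 to 0.95 that allows a difference in either direction (adjusted p = 0.771).

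The same held for the partners of these chaperones. The nucleotide exchange factor NEF Os09g0512700 had 44.6, 47.0 and 47.0 CPM in SATxSSA and 4.28, 3.05 and 4.60 CPM in SAT, and 62.0, 57.9 and 99.1 CPM in SSA and 5.23, 3.85, 4.93 and 4.38 CPM in Taipei. Its interaction was -0.45 (95% CI -1.07 to 0.17, adjusted p = 0.542). The Hsp90 chaperone GRP94 Os06g0716700 averaged 549 CPM ± 21.8 in SATxSSA and 260.1 CPM ± 26.4 in SAT, and 780.5 CPM ± 70.4 in SSA and 257 CPM ± 15.1 in Taipei, and had the smallest adjusted p of the list (interaction -0.52, 95% CI -0.82 to -0.23, adjusted p = 0.0972). The lectin chaperones calnexin, CNX Os04g0402100, and calreticulin, CRT Os07g0246200, had interactions of -0.34 (95% CI -0.59 to -0.08, adjusted p = 0.237) and -0.10 (95% CI -0.35 to 0.15, adjusted p = 0.773).

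Among the genes of disulfide formation, PDIL2-3 Os09g0451500 stood at 340, 318 and 343 CPM in SATxSSA and 97.1, 74.3 and 92.3 CPM in SAT, and at 604, 445 and 650 CPM in SSA and 129, 110, 117 and 100.9 CPM in Taipei. The interaction was -0.38 (95% CI -0.75 to -0.02, adjusted p = 0.346). PDIL1-1 Os11g0199200 and the oxidase ERO1 Os03g0733800, which reoxidizes the isomerases, were the 2 genes that rose with HaSSA alone but did not pass the test with EcSAT. The effect on PDIL1-1 was 1.05 with EcSAT (adjusted p = 0.024) and 1.53 without it (adjusted p = 0.00167), and that on ERO1 was 0.33 with EcSAT (95% CI -0.07 to 0.72, adjusted p = 0.268) and 1.16 without it (adjusted p = 0.000308). The interactions of both missed the threshold (-0.48 with an adjusted p of 0.645, and -0.83 with an adjusted p of 0.158), so the 2 effects were not shown to differ. In all 12 ER folding genes that rose in SSA, the lowest SSA library lay above the highest SATxSSA library, and in 11 of them the lowest SATxSSA library lay above the highest SAT library. The corresponding numbers for the 13 sulfur genes were 13 and 1. Both sets were chosen for high levels in SSA, so the order of SSA above SATxSSA is partly built in and is no separate support. A smaller share of unmapped reads in SATxSSA than in SSA (above) goes with these lower levels, and its part in them was not tested.

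**Figure D3:**
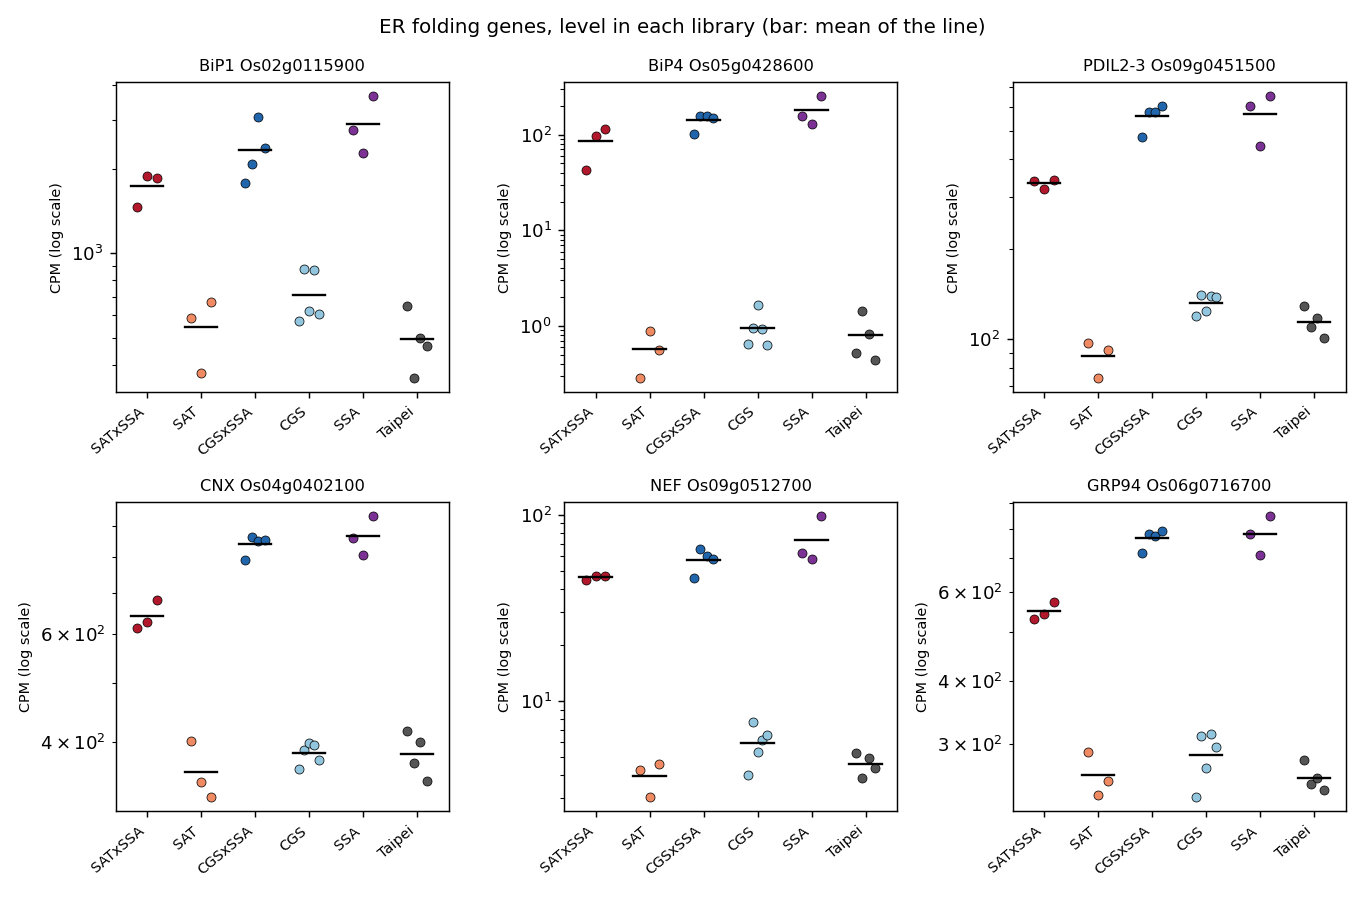
Level of 6 ER folding genes in each library (points, CPM on a log axis) with the mean of each line (bars). The 3 lines with HaSSA lie above their counterparts without it in every panel, and SATxSSA lies between SAT and SSA.

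Over all genes, the interaction was called for 67 of 26821 (0.250%), 26 higher and 41 lower. The effect of HaSSA was called for 427 genes higher and 713 lower with EcSAT and for 490 higher and 169 lower without it, and with library-size scaling for 4235 higher and 384 lower with EcSAT and for 2933 higher and 66 lower without it. Of the 67 genes, 40 were called for the HaSSA effect only without EcSAT, 19 only with it and 8 in both backgrounds. A change shared by all transgenic lines enters this contrast with its sign reversed, because Taipei is its only untransformed line. Taipei stood apart from all 5 transgenic lines, each by at least 0.5 of the interaction, in 15 of the 67 genes, all 15 of them lower. None of these 15 was called in the contrast that uses neither Taipei nor SSA, (SATxSSA minus SAT) minus (CGSxSSA minus CGS). The rule makes this likely, since it places all lines of that contrast on the same side of Taipei, so it is no separate support. That contrast called 27 of the 67 with the same sign, 9 higher and 18 lower, against a background of 0.432% of all genes higher and 0.776% lower, and 36 of the 67 had an estimate of the same sign and at least 0.5 of the size. It shares the SATxSSA and SAT libraries with the interaction and is no independent support. Without CGSxSSA replicate 1 the interaction was called for 113 genes, 59 of them with the same sign in this contrast, and the number with Taipei apart from all 5 transgenic lines was 15 again.

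By the line that stood apart from the other 3 of the contrast, again by at least 0.5 of the interaction, the 67 genes fell into groups of unequal size. This rule was chosen after the values were seen. Taipei stood apart in 27 genes (1 higher, 26 lower), in which the median log2 differences from Taipei among the 26 lower genes were 2.78 in SATxSSA, 2.85 in SAT and 2.77 in SSA. These comprised the 15 genes in which CGSxSSA and CGS were also away from Taipei, 6 in which CGSxSSA was away and CGS was not, and 6 in which neither was. The 6 genes of the second kind were all called in the contrast without Taipei and SSA, so that such a call alone does not separate a gene that is non-additive from one in which SAT and SSA differ from Taipei alike. SSA stood apart in 11 genes (3 higher, 8 lower), among them LSU2 and SULTR4;1. In 7 of the 8 lower genes HaSSA had a like effect with AtD-CGS, and 6 of these 7 were called in the contrast without Taipei and SSA, while SULTR4;1 missed its threshold (-1.61, adjusted p = 0.0126). In the remaining 4 genes, 3 higher and 1 lower, HaSSA had no like effect with AtD-CGS, and 0 were called in that contrast. SAT stood apart in 6 genes (3 higher, 3 lower) and SATxSSA in 3 (2 higher, 1 lower). Without CGSxSSA replicate 1, SSA stood apart in 40 of the 113 genes then called (4 higher, 36 lower), more than Taipei with 28 (1 higher, 27 lower), and 28 of the 40 were called in the contrast without Taipei and SSA.

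No line stood apart alone in the remaining 20 genes, of which 17 were higher. Without CGSxSSA replicate 1 such genes numbered 35, of which 18 were higher and 17 lower. In the 17 higher genes called with all libraries, the median differences from Taipei were -0.67 in SATxSSA, -2.31 in SAT, -1.37 in SSA, -1.24 in CGSxSSA and -1.29 in CGS. SAT had the lowest mean of the 6 lines in 13 of them and Taipei the highest in 12, and SATxSSA lay between SAT and Taipei in 12. With a limit of 0.333 in place of 0.5, 23 genes had Taipei apart, 8 SSA, 3 SAT and 2 SATxSSA, and 31 no line alone.

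**Figure D4:**
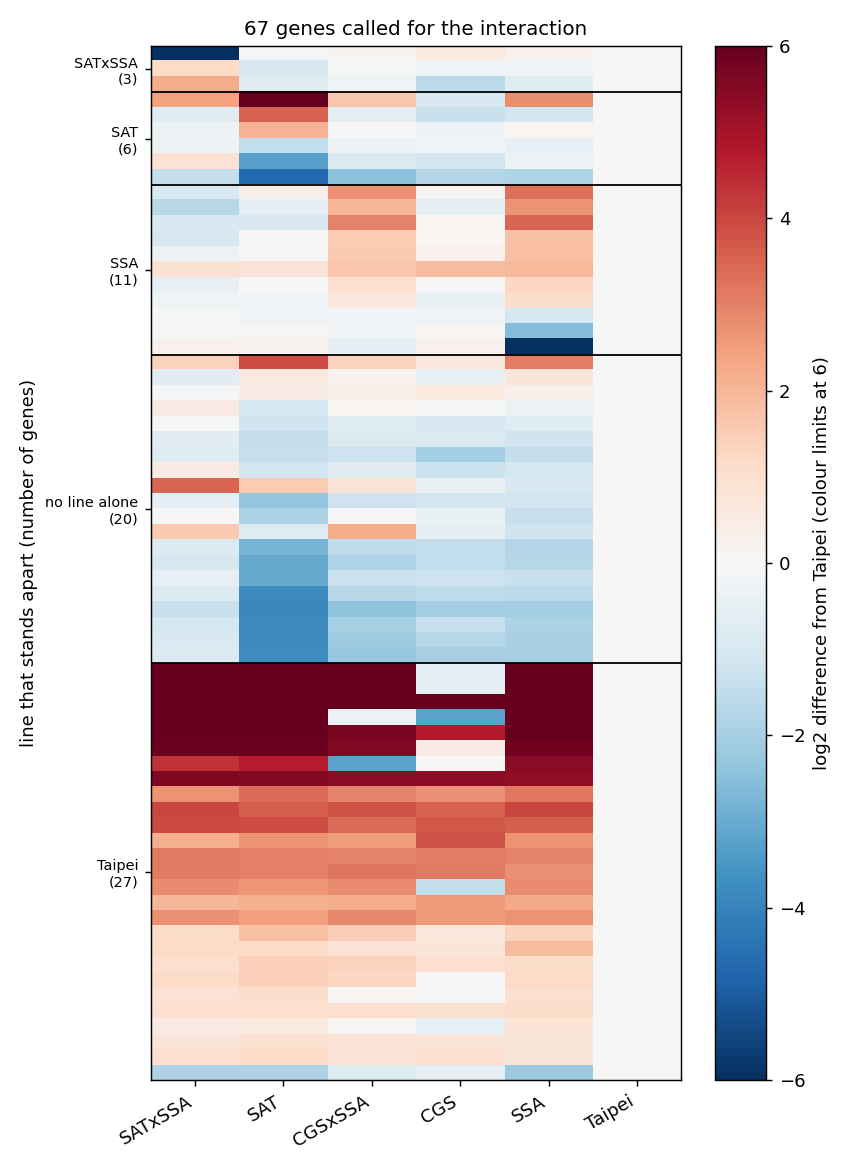
Fitted log2 difference from Taipei (colour, limited at 6 in either direction) of the 67 genes called for the interaction (rows, grouped by the line that stands apart) in the 6 lines (columns). The 27 genes with Taipei apart are near evenly coloured across SATxSSA, SAT and SSA, while in the 8 lower genes with SSA apart the CGSxSSA column mostly follows SSA.

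Among genes that reached 5 CPM in a line and kept their sign in all leave-one-out fits, those with the largest interactions are known here by identifier only, and the first 2 of each direction are given. Os10g0100300 was nearly silent in the double line, with 3, 1 and 0 reads in the SATxSSA libraries. It stood at 18.7, 16.1 and 15.6 CPM in SAT, at 19.1, 21.6 and 22.0 CPM in SSA and at 13.6, 18.7, 19.2 and 18.6 CPM in Taipei. Both parents of the cross thus expressed it at the level of Taipei, and its mean was 19.6 CPM in CGSxSSA and 26.2 CPM in CGS. From 4 and 1635 reads, the ratio of SATxSSA to SAT was 0.00208 with an exact 95% counting interval of 0.000566 to 0.00534. The fitted interaction, which at such counts depends on the prior count, was -9.02 (adjusted p = 1.09e-13), and it was called in all 13 leave-one-out fits. With reads of both strands counted, the interaction was -3.84 (adjusted p = 2.52e-11). Os03g0629800 had 20.8, 15.0 and 17.5 CPM in SATxSSA and 21.6, 25.5 and 16.6 CPM in SAT, and 18.3, 15.1 and 16.2 CPM in SSA and 1, 1, 3 and 0 reads in the Taipei libraries. The 3 lines stood at like levels, and Taipei near 0 (interaction -8.88, adjusted p = 0.00499). It had 0 or 1 reads in each CGS library, and in CGSxSSA it stood at 10.1, 17.6 and 21.0 CPM in replicates 1, 3 and 4 and at 2 reads in replicate 2. The ratio of SAT to Taipei, from 2096 and 5 reads, was 560 (95% counting interval 240 to 1730), and the call held in only 3 of the 13 leave-one-out fits (adjusted p 0.00733 to 0.0179).

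In the other direction, Os04g0587100 had 8.27, 21.8 and 6.65 CPM in SATxSSA and 1.25, 0.914 and 1.73 CPM in SAT, and 7.40, 15.2 and 4.75 CPM in SSA and 24.6, 24.8, 45.6 and 36.5 CPM in Taipei. Its interaction of 5.10 (SE 0.86, adjusted p = 0.00649) was called in 4 of the 13 leave-one-out fits (adjusted p 0.00388 to 0.0298). Os02g0172300 had 12.2, 13.6 and 5.15 CPM in SATxSSA and 1.34, 1.36 and 1.37 CPM in SAT, and 5.43, 5.94 and 3.62 CPM in SSA and 11.8, 18.7, 23.3 and 22.9 CPM in Taipei. The interaction was 4.87 (SE 0.59, adjusted p = 0.000172), and it was called in all 13 leave-one-out fits. In both genes SAT had the lowest mean of the 4 lines and Taipei the highest, and no SAT library overlapped with another of these lines. The means of CGSxSSA and CGS were 5.92 and 9.73 CPM for Os04g0587100 and 4.43 and 5.75 CPM for Os02g0172300. All 5 transgenic lines thus had lower means than Taipei, and a fall shared by them enters the interaction with its sign reversed. The fitted differences from Taipei were -4.675 in SAT and -2.47 to -1.43 in the other transgenic lines for Os04g0587100. For Os02g0172300 they were -3.82 in SAT and -2.11 to -0.90 in the others. In the contrast without Taipei and SSA the estimates were 3.97 (adjusted p = 0.0111) and 3.305 (adjusted p = 0.00337, called), both from edgeR.

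**Figure D5:**
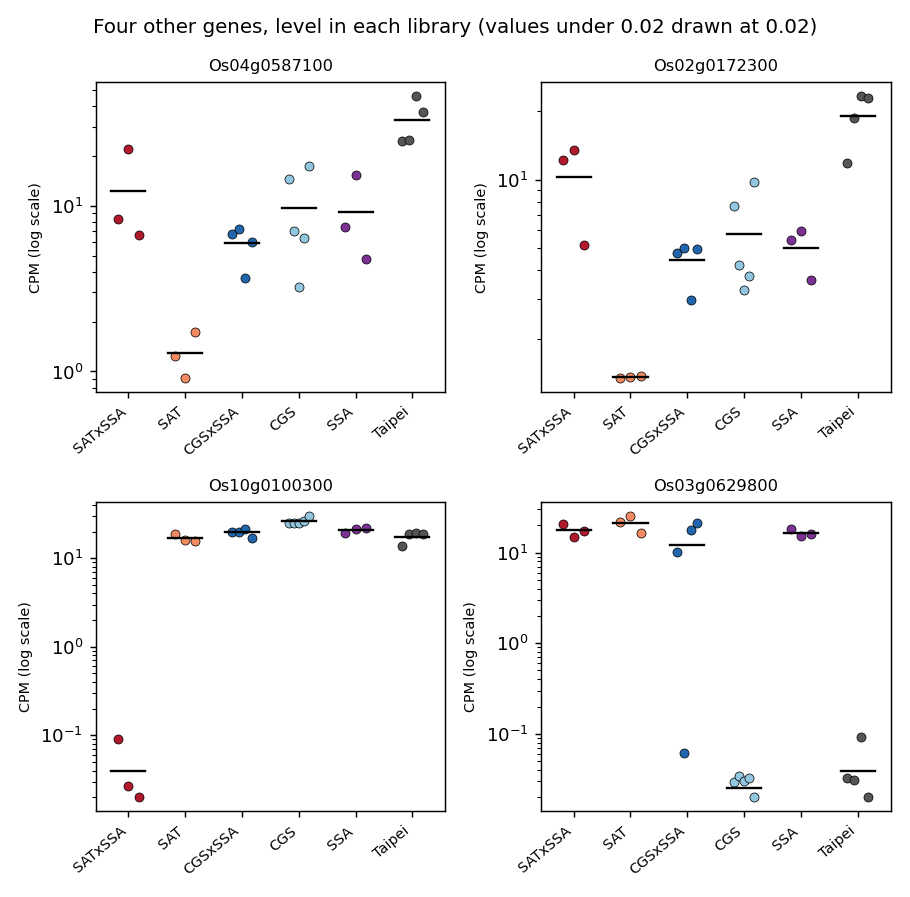
Level of the 4 genes known by identifier in each library (points, CPM on a log axis, values under 0.02 drawn at 0.02) with the mean of each line (bars). SATxSSA lies apart for Os10g0100300, Taipei and CGS for Os03g0629800, and SAT is lowest for Os04g0587100 and Os02g0172300.

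The like contrast for AtD-CGS, which shares the SSA and Taipei libraries, is given side by side without a test between them. It was called for 32 genes higher (0.119%) and 70 lower (0.261%). HaSSA raised 12 of the 43 sulfur genes with AtD-CGS (background 1.82%), against 0 with EcSAT and 13 without either transgene, and 13 of the 24 ER folding genes, against 10 with EcSAT and 12 without either. The AtD-CGS interaction was -0.14 for LSU2, -0.51 for SULTR4;1, -1.36 for HMT1 and -1.29 for SDI1, with adjusted p from 0.325 to 0.933 (edgeR). It was -0.84 for BiP1, -0.59 for BiP4, -0.48 for PDIL1-1 and -0.72 for NEF, close to or beyond the EcSAT values. For GRP94 (-0.17), CNX (-0.05), PDIL2-3 (-0.235) and ERO1 (-0.38) it was nearer 0 than with EcSAT, and for CRT Os07g0246200 it was 0.18. None of these ER folding genes passed the test. CGSxSSA replicate 1, which was low in most of the sulfur genes that rose in SSA, is itself part of this contrast. The AtD-CGS contrast was not refitted without that library.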

How the data were processed

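Strand-specific single-end reads were aligned by the authors to IRGSP-1.0 of rice (STAR 2.7.1a). The deposited files hold raw counts of reads per gene, of which the anti-strand column was taken as in the study; multi-mapping reads are in no gene, so near-identical family members are uncertain. The groups come from the line labels. Counts of all 22 libraries were fitted in edgeR 4.0.16 (R 4.3.3) with TMM scaling, filterByExpr, robust quasi-likelihood dispersion and the line as factor. Standard errors are the log2 estimate over the square root of F. The method was tested on simulated data. Alternatives were DESeq2 1.42.0, other scalings and filters, unstranded counts, a threshold of 0.05, a replicate block, the 13 libraries alone and leaving out each library. Lists and members were chosen with earlier results of these data known. Named genes are list genes past the threshold, genes named in the study's text, and, of the 10 largest interactions in each direction with at least 5 CPM in a line and 1 sign in all leave-one-out fits, the first 2. Lists defined by words of gene products were not run, since the identifiers could not be matched to the annotation at hand, and no sequence is shown for the same reason. Replicates are seeds of individual panicles, so p-values measure the spread between plants within lines, taken over all lines of the fit. In SATxSSA and CGSxSSA this spread can include a difference between the 2 segregants.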

Additional observations from a re-analysis of the deposited data

Results flagged for a closer look

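Within lines of 4 or 5 libraries, 1 library lay far from the others, by Dixon's test, in 11 of the 87 sets of values looked at (chance flags about 1 in 20). CGSxSSA replicate 1 was low in 5 of them, with 33.3 CPM of SULTR4;1 (others 87.3 to 95.1), 100 CPM of BiP4 (150 to 158), 792 CPM of CNX (852 to 862), 1.79 CPM of HMT3 (10.2 to 11.7) and 25.8 CPM of SDI2 (55.0 to 58.9). It is not part of the interaction but enters the spread behind it. Taipei replicate 1 was high for SULTR4;1 (30.7 CPM, others 23.9 to 24.9) and low for Os10g0100300 (13.6 CPM, others 18.6 to 19.2). The other cases were LSU1 in CGS replicate 4 (0.428 CPM, others 0.210 to 0.266), Os02g0172300 in CGSxSSA replicate 3 (2.95 CPM, others 4.77 to 5.02), Os10g0100300 in CGS replicate 5 (30.3 CPM, others 24.9 to 26.1) and Os03g0629800 in CGS replicate 5 (0 CPM, others 0.0295 to 0.0340, which is 1 read each).

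Among the genes named, the interaction itself was called for SULTR4;1 (-2.12), LSU2 (-3.86), Os04g0587100 (5.10), Os02g0172300 (4.87), Os10g0100300 (-9.02) and Os03g0629800 (-8.88). Only the calls of Os02g0172300 and Os10g0100300 held in every leave-one-out fit. In Os03g0629800, SATxSSA, SAT and SSA stood at like levels and Taipei near 0. Its call does not separate a non-additive effect from SAT and SSA differing from Taipei alike. In Os04g0587100 and Os02g0172300 all transgenic lines had lower means than Taipei, and a shared fall enters with its sign reversed. The fall was largest in SAT in both genes.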

How the results depend on the processing

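No called gene named here changed its sign under any alternative. DESeq2 called 92 genes higher and 140 lower for the interaction, 12 sulfur genes lower, 923 higher and 1435 lower for HaSSA with EcSAT, 740 higher and 383 lower for HaSSA without it, and 390 higher and 762 lower in the contrast without Taipei and SSA, with 121 interaction genes called there too and 25 with Taipei apart from all 5 transgenic lines. At a threshold of 0.05 the same numbers were 66 and 110, 8, 1589 and 2038, 1022 and 512, 635 and 971, 106 and 24. Library-size scaling moved mainly the counts for HaSSA, to 4235 higher and 384 lower with EcSAT, so that most calls were then higher, and 2933 higher and 66 lower without it. The median effect of HaSSA with EcSAT over the sulfur genes called without it, SULTR1;1 aside, was then 0.09 in place of -0.20. Without a filter on low counts, 0 sulfur genes were called. With only genes above a mean of 100 normalized counts, the interaction was called for 16 genes higher and 22 lower, 6 of them with Taipei apart. The 13 libraries alone gave 66 genes lower and 8 sulfur genes. Without CGSxSSA replicate 1, an alternative added after seeing the data, 85 genes were lower, 12 of them sulfur genes, and 59 interaction genes were called in the contrast without Taipei and SSA. Leaving out each library of the contrast in turn gave 18 to 32 interaction genes higher and 26 to 62 lower, of which 44 to 60 were among the 67, 0 to 6 sulfur genes, 0 ER folding genes, 79 to 572 higher and 91 to 781 lower with EcSAT, 201 to 569 higher and 46 to 183 lower without it, 36 to 137 higher and 67 to 241 lower in the contrast without Taipei and SSA with 11 to 32 shared, and 11 to 15 genes with Taipei apart. A fit with the replicate number as a block called 1 sulfur gene for the interaction (LSU1, with LSU2 at an adjusted p of 0.0182 and SULTR4;1 at 0.0258), 313 genes higher and 105 lower for HaSSA without EcSAT, and 36 higher and 55 lower in the contrast without Taipei and SSA, 15 of them shared. Same-numbered libraries correlated at -0.24 to 0.41 (9 of 18 pairs above 0.1), so the numbers were not taken to pair the 4 lines of the contrast, although all 3 pairs of SSA and SATxSSA exceeded 0.1. Low read numbers limit LSU1, SULTR1;1, Os10g0100300 and Os03g0629800.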
